A study of Mus musculus with 20 samples.

Results

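Smooth muscle contractile genes encode the actins, the myosin, the myosin kinase and the accessory proteins with which muscle cells of the gut wall and of vessels shorten. The 10 genes Acta2, Actg2, Myh11, Mylk, Tpm2, Cnn1, Lmod1, Des, Synpo2 and Kcnmb1 were taken by name from 17097 mouse genes with a probe set of a single symbol. A gene was represented by its probe set with the highest mean over 20 arrays. The 10 genes had 21 probe sets, and Actg2, Cnn1 and Lmod1 had 1 each. All 10 genes were among the 15556 genes tested, which had a log2 value above 4.16 on at least 2 arrays.

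The study profiled 20 tumours that grew in the caecum of C57BL/6J mice. Each had its own array, with values on the log2 scale of RMA, a method that corrects background, normalizes arrays and summarises probes. The tumours grew from 5 mouse tumour organoid (MTO) lines, each with 2 control tumours and 2 tumours of mice given galunisertib, which blocks the kinase of the type I TGF-beta receptor. Galunisertib was given by gavage at 10 mg, 2 times per day, from day 11 to sacrifice at week 5, and LY in the labels was taken to be this drug. MTO68 and MTO93 are parental lines of genotype LAKTP, MTO140 is an LAKTP line of type LiM, MTO54 is a parental LAKP line and MTO207 is a parental LAKT line. What the letters stand for is not stated there. MTO140 organoids were placed under the caecal serosa as spheroids, while the other lines were grown under the skin and moved to the caecum tip as small tumour pieces. The tip was then folded over. Implantation and line cannot be told apart for MTO140, nor can line and array strip for any line, and treatment was compared within strips. The replicates are biological per the design text.

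Smooth muscle cells contract when Mylk phosphorylates myosin light chains and Myh11 filaments pull on thin filaments of Acta2 and Actg2. Acta2 is also the classical marker of myofibroblasts, the fibroblasts that acquire contractile fibres under TGF-beta, whereas Myh11, Actg2 and Des are used as markers of mature muscle of the gut wall. Serum response factor and its partners drive many of these genes through a DNA element called the CArG box.

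Promoters are shown because most of these genes moved together across tumours, as described below. Another reason is that the CArG box and the CAGAC element, which Smad proteins downstream of TGF-beta can bind, are known inputs to muscle genes. RefSeq promoter windows of GRCm38.p6, from 250 bases before to 50 bases after the start site, were at hand for 8 of the 10 genes, and for Actg2 and Myh11 none was. Acta2 lies at chr19:34255324-34255623 on the minus strand, Cnn1 at chr9:22099003-22099302 and Des at chr1:75360042-75360341, both on the plus strand. Capitals mark CAGAC or its reverse complement GTCTG and, in Acta2, matches to a CArG box with 1 C or G among its 6 middle bases.
Acta2: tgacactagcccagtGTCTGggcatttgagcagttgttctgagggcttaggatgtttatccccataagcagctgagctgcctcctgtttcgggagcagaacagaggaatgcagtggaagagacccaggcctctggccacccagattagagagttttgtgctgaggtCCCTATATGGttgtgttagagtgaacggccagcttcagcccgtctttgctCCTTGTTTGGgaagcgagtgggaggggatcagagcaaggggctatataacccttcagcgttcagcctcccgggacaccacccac
Cnn1: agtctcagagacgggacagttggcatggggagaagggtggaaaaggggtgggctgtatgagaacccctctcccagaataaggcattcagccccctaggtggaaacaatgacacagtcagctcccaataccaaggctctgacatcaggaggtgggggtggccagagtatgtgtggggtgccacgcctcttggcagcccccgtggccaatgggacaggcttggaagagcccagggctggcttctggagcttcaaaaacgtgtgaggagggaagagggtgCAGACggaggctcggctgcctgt
Des: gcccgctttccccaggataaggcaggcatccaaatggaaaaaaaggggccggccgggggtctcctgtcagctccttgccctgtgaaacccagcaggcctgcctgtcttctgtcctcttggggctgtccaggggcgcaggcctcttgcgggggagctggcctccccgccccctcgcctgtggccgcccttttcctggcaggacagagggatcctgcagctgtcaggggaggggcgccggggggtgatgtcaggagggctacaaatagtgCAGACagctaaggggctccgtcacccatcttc
Read on both strands, an exact CArG box was in 0 of the 8 windows and in 1.63% of all promoters in the table. The near match, searched after the exact search had found none, was in Acta2 alone among the 8, at bases -84 to -75 (CCCTATATGG) and -34 to -25 (CCTTGTTTGG), and in 8.50% of all promoters. CAGAC was in Acta2, Cnn1, Des and Mylk, 4 of the 8 windows, against 49.6% of all promoters. The windows are short, and a match is a match of letters only.

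Before the results, 3 arrays need mention. The SD of the values of an array ran from 1.46 to 1.83. In MTO68 it was 1.47 in control replicate 2 against 1.76 to 1.82 in the other 3 tumours. In MTO207 it was 1.46 in both control tumours and 1.57 and 1.55 in the treated tumours. Both treated arrays thus had a higher SD than both controls in MTO68 and MTO207, while the arms overlapped in the other lines. What part the array spread had in the treatment differences was not tested. Control replicate 1 of MTO54 had the highest mean of the myofibroblast list (0.97 above the mean of all tumours) and the lowest of the tumour epithelium list (-1.08). Galunisertib replicate 2 of MTO207 had the lowest Acta2, Myh11 and Des of all tumours.

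The myosin heavy chain Myh11, at chr16:14194527-14292188, separates smooth muscle from most fibroblasts. In the control tumours its log2 level was 9.73 and 8.37 in MTO68, 9.84 and 9.08 in MTO93, 10.20 and 10.23 in MTO140, 7.90 and 9.83 in MTO54, and 8.84 and 9.44 in MTO207. In the galunisertib tumours it was 8.28 and 8.07, 7.58 and 8.73, 8.82 and 8.72, 10.25 and 9.44, and 10.16 and 6.87, in the same order of lines. Both treated tumours lay below both controls in the 3 LAKTP lines, while the groups overlapped in MTO54 and MTO207. The highest and the lowest tumour of the study were both treated, and the 2 treated MTO207 tumours were the widest pair of any group for Myh11.

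Acta2, at chr19:34240336-34255585, encodes the alpha actin shared by smooth muscle and myofibroblasts. Its control levels were 9.53 and 8.45 in MTO68, 10.02 and 9.12 in MTO93, 9.97 and 9.91 in MTO140, 9.58 and 9.70 in MTO54, and 8.87 and 9.30 in MTO207. The treated tumours had 8.59 and 9.06, 8.21 and 8.86, 8.88 and 8.60, 10.20 and 10.02, and 9.67 and 8.13. In MTO93 and MTO140 both treated tumours were below both controls. In MTO54 both were above, the only case of that kind among the 10 genes. The range over 20 tumours was 2.07 for Acta2 and 3.37 for Myh11.

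Actg2, at chr6:83512909-83536251, encodes the gamma actin that predominates in gut muscle, and it had the widest range of the 10 genes (4.30). In MTO140 it was 8.86 and 8.80 in control tumours and 6.64 and 5.77 in treated tumours. In MTO93 it was 8.46 and 6.99 against 4.90 and 6.66. The other lines overlapped, with 8.08 and 6.04 against 6.75 and 6.28 in MTO68, 7.26 and 8.35 against 9.20 and 7.75 in MTO54, and 6.06 and 7.83 against 8.08 and 5.33 in MTO207. The lowest tumour, from MTO93, was just below the median of all values of the table (5.01).

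Cnn1 encodes calponin, which binds thin filaments and slows the myosin motor, and Des encodes desmin, the intermediate filament of muscle. Cnn1 was 8.45 and 8.21 in control and 6.46 and 6.19 in treated MTO140 tumours. Its other tumours lay between 5.81 and 8.16. Des was 7.01 and 6.88 against 5.66 and 5.53 in MTO140. It stood between 5.19 and 6.46 elsewhere. For both genes treated tumours lay below the controls in each LAKTP line, and the control tumours of MTO140 were the highest for Cnn1 and for Des.

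Tpm2 encodes a tropomyosin that lies along the thin filament. It had 9.57 and 9.48 against 8.02 and 8.02 in MTO140, 9.42 and 8.29 against 6.61 and 7.87 in MTO93, and 9.02 and 7.0 against 7.25 and 7.67 in MTO68. All 4 MTO54 tumours were high, between 9.47 and 9.81, and MTO207 had 8.31 and 8.63 against 9.18 and 7.52. Mylk, the kinase, ranged from 7.57 to 9.91, and both treated tumours were below both controls in MTO93 and MTO140. Its lowest tumour was control replicate 2 of MTO68, the array with the narrow spread.

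The remaining 3 genes lay near the median of the table and moved little. Lmod1, leiomodin, nucleates muscle actin filaments and ranged from 4.82 to 5.59. Synpo2, an actin-bundling protein also called myopodin, ranged from 4.33 to 5.68. Kcnmb1, the beta subunit that tunes the calcium-gated potassium channel of smooth muscle, ranged from 4.14 to 5.11.

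**Figure D1:**
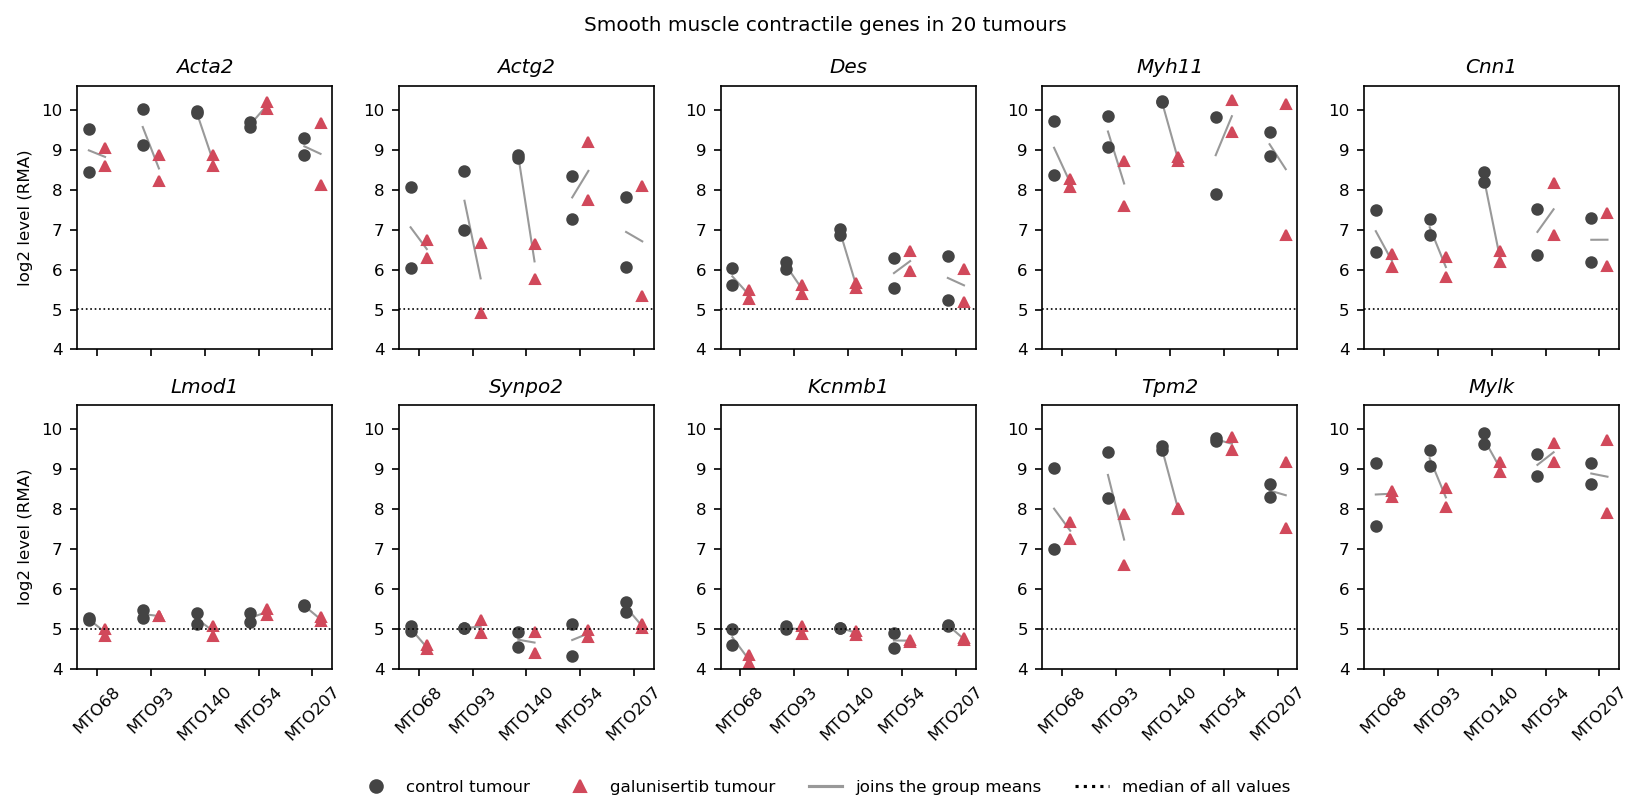
Log2 level (RMA, vertical axes) of the 10 genes in each tumour by organoid line, with black points for control and red triangles for galunisertib tumours, lines joining group means and a dotted line at the median of all values (5.01). Treated tumours lie lower in MTO140 for 9 of 10 genes, and Lmod1, Synpo2 and Kcnmb1 stay between 4.14 and 5.68.

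Over all 5 lines the 10 genes had lower means in treated tumours, but none passed the test. The log2 difference was -0.94 (SE 0.47) for Actg2, or 1.92-fold lower, -0.78 (SE 0.29) for Tpm2, -0.65 (SE 0.39) for Myh11, -0.64 (SE 0.30) for Cnn1 and -0.45 (SE 0.19) for Des. For Acta2 it was -0.42 (SE 0.23), or 1.34-fold lower, and for Mylk -0.29 (SE 0.24). Kcnmb1 (-0.22, SE 0.08), Lmod1 (-0.18, SE 0.07) and Synpo2 (-0.16, SE 0.11) differed least. With limma and a block for line, 0 of 10 genes passed an adjusted p of 0.05, as did 0% of all genes tested, and the smallest adjusted p was 0.468, for Kcnmb1. The median over the 10 genes was -0.44 against 0.00 over all genes. All 10 estimates were below 0, against 49.7% of all genes, and 5 of 10 were lower at an unadjusted p under 0.05, against 3.66%. The 5 were Cnn1, Des, Tpm2, Kcnmb1 and Lmod1. Of these Kcnmb1 and Lmod1 were dim and had r = -0.77 and -0.63 with the array's SD, as described below. The count of 5 also rested on single tumours. It was 2 without MTO207 galunisertib replicate 2 or without control or galunisertib replicate 2 of MTO140, and 3 without control or galunisertib replicate 1 of MTO140, MTO68 galunisertib replicate 1 or MTO207 control replicate 2. It was 8 without MTO54 control replicate 1 or MTO207 galunisertib replicate 1, while 3.13% to 5.13% of all genes were lower with a tumour left out. Without the whole line it was 9 for MTO54, 2 for MTO93 and 1 for MTO68 or MTO140. Kcnmb1 and Tpm2 were lower in each of the 5 lines, as were 3.28% of all genes, with Kcnmb1 at -0.01 in MTO54. The dimmest Tpm2 probe set was higher in MTO207, at 0.12, while the other probe sets of that gene were lower in each line. Whole tumour fragments were used, so fewer muscle cells and less RNA per cell cannot be told apart.

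In the LAKTP lines the differences were larger, and again none passed. Actg2 differed by -1.71 (SE 0.54), or 3.26-fold, Cnn1 by -1.25 (SE 0.31), Tpm2 by -1.23 (SE 0.36) and Myh11 by -1.21 (SE 0.49). Acta2 and Des each differed by -0.80 (SE 0.26 and 0.20), and Mylk by -0.56 (SE 0.31). The dim genes Kcnmb1, Lmod1 and Synpo2 differed by -0.24, -0.23 and -0.16. The median over the 10 was -0.80, and 8 of 10 were lower at an unadjusted p under 0.05, against 3.75% of all genes. The 8 include the dim Kcnmb1 and Lmod1. After limma's adjustment 0 of 10 passed, against 0.00643% of all genes, and the smallest adjusted p was 0.193, for Cnn1 and Des. Without MTO68 control replicate 2, Tpm2 passed (-1.56, limma adjusted p = 0.0463), as did 0.508% of all genes. Without control replicate 1 of that line Kcnmb1 passed (-0.31, limma adjusted p = 0.0385), as did 8.59% of all genes.

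Line by line, the pattern was uneven. The median difference over the 10 genes was -1.27 in MTO140, -0.99 in MTO93, -0.51 in MTO68, -0.21 in MTO207 and 0.31 in MTO54. In MTO54 2 of 10 means were lower in treated tumours, against 46.8% of all genes. In MTO140 Actg2 differed by -2.63 (SE 0.94), Cnn1 by -2.01 (SE 0.54) and Des by -1.35 (SE 0.35). In MTO54 Myh11 differed by 0.98 (SE 0.84) and Actg2 by 0.66 (SE 0.94), each about its own SE. Both treated tumours were below both controls for 9 genes in MTO140, against 12.6% of all genes, and for 7 in MTO93, against 14.4%. The counts were 6 in MTO68 against 23.2%, 3 in MTO207 against 31.6% and 0 in MTO54 against 16.4%. No member passed in any line. Without MTO68 control replicate 1, Kcnmb1 passed in MTO68 (-0.74, limma adjusted p = 0.0033), where 8323 of the 15556 genes then did. Of all genes 2.01% passed in MTO68 with all tumours, 0.00643% in MTO140 and 0% in MTO93, MTO54 and MTO207.

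The sign in MTO54 and MTO207, and the size in MTO68, rested on single tumours. The MTO68 median was -0.21, with 6 of 10 genes below 0, without control replicate 1 and -0.74 without control replicate 2. Without control replicate 1 the MTO54 median was -0.0023. In MTO207 it was 0.62 without galunisertib replicate 2 and -0.81 without galunisertib replicate 1. The 3 dim genes made up the 3 of MTO207 whose groups did not overlap.

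**Figure D2:**
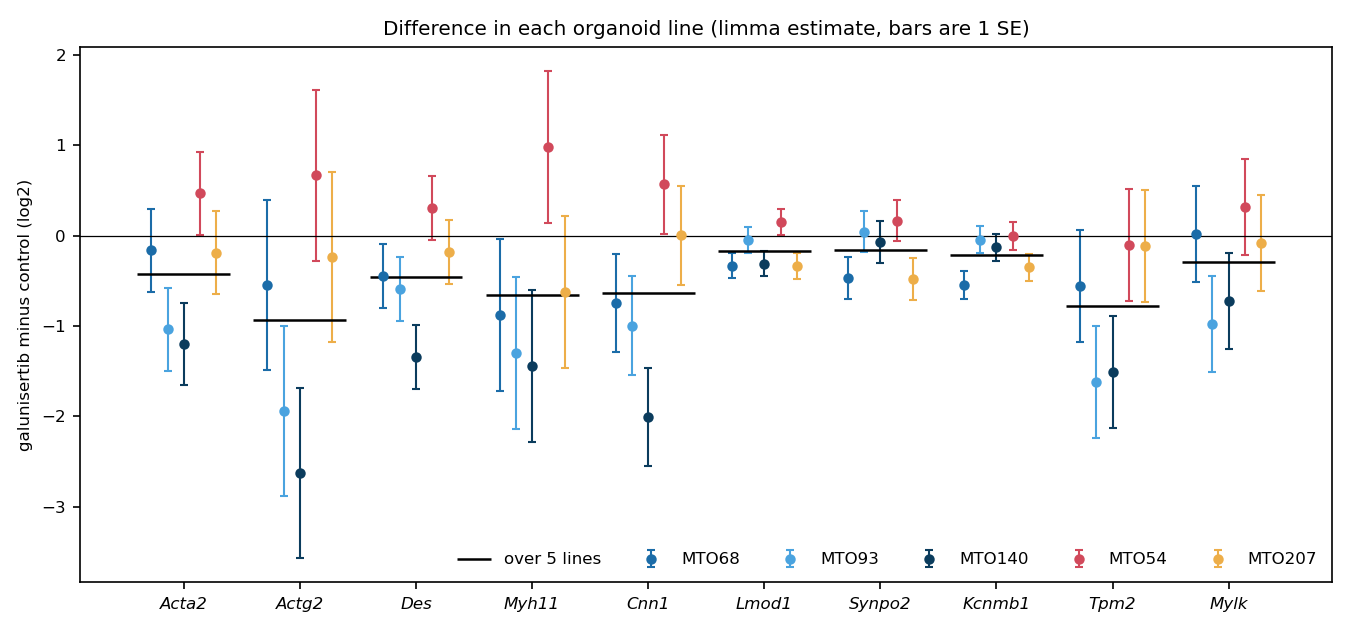
Galunisertib minus control on the log2 scale (vertical axis) for each gene (horizontal axis) and line, as limma estimates with bars of 1 SE, with a black line at the estimate over 5 lines. The MTO140 points reach -2.63 for Actg2, and the MTO54 points lie above 0 for 8 of 10 genes with wide bars.

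The difference in effect between the LAKTP lines and MTO54 with MTO207 was tested directly. LAKP and LAKT have 1 line each, so genotype cannot be told apart from line or strip. The LAKTP effect minus the mean effect of MTO54 and MTO207 was -1.92 (SE 0.86) for Actg2, -1.53 (SE 0.50) for Cnn1, -0.94 (SE 0.42) for Acta2 and -0.85 (SE 0.32) for Des. These 4 genes were lower at an unadjusted p under 0.05, against 0.939% of all genes. That count was 1 without MTO54 control replicate 1, MTO54 galunisertib replicate 1, MTO207 control replicate 1 or MTO207 galunisertib replicate 1, and 7 without MTO207 galunisertib replicate 2. It was 2 without MTO68 control replicate 1, either replicate 1 tumour of MTO93, either MTO140 control or MTO140 galunisertib replicate 2, and 0.598% to 3.76% of all genes were lower with a tumour left out. None of the 10 passed, nor did any gene (0%), and every adjusted p of a member was 1.00 in limma. The F test of unequal effects over 5 lines called 0 of 10 members and 0.0643% of all genes. Cnn1 came nearest there, with an unadjusted p of 0.0433 and a limma adjusted p of 0.563. With a tumour left out 0 to 5 members had an unadjusted p under 0.05 in that F test, with 5 without MTO207 galunisertib replicate 2.

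Control tumours alone gave the levels that each line carried without drug. Mean control levels of Myh11 were 10.22 in MTO140, 9.46 in MTO93, 9.14 in MTO207, 9.05 in MTO68 and 8.87 in MTO54, and the F test of these means did not pass (limma adjusted p = 0.614). For Acta2 the order was MTO140 (9.94), MTO54 (9.64), MTO93 (9.57), MTO207 (9.09) and MTO68 (8.99), with a limma adjusted p of 0.343. Over the 10 genes 0 passed, against 2.80% of all genes. Without MTO68 control replicate 1, or without its control replicate 2, 2 of 10 passed, against 41.9% and 47.1% of all genes, a smaller share than among all genes. Without MTO54 control replicate 2, 1 passed, against 4.45%. Among the 10 pairs of lines, 3 member calls were made, all in MTO140 minus MTO207. In the other 9 pairs no member passed, against 0% to 2.22% of all genes. The 3 calls were Cnn1 (1.58, limma adjusted p = 0.0362), Des (1.15, limma adjusted p = 0.0262) and Synpo2 (-0.81, limma adjusted p = 0.0218). In MTO140 minus MTO207 40.1% of all genes passed, and the array SD was 1.83 and 1.66 in MTO140 against 1.46 and 1.46 in MTO207. What part the array spread had was not tested. Without control replicate 1 of MTO140 or of MTO207 no member passed in any pair, and without control replicate 2 of MTO207 1 did. There were 11 member calls without control replicate 1 of MTO68, all in pairs in which 10.8% to 54.2% of all genes passed. Without control replicate 2 of MTO68 there were 6, in pairs in which 25.8% to 54.2% of all genes passed.

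The 10 genes fell into a set of 7 that moved together and the 3 dim genes, a split made after their values were seen. After line means were subtracted, Pearson's r over 20 tumours between any 2 of Acta2, Actg2, Myh11, Cnn1, Des, Tpm2 and Mylk lay between 0.74, for Des with Tpm2, and 0.97, for Des with Cnn1. These points share line, strip and treatment, so the values are descriptions. Lmod1, Synpo2 and Kcnmb1 were correlated among themselves at 0.59 to 0.68. They were related to the array's SD at -0.63, -0.68 and -0.77, while the 7 others lay between -0.07 and 0.34. The dim genes thus moved with a property of the whole array, and the other probe sets of 2 of them bear on it. A second Synpo2 probe set had r = 0.78 with Myh11 and 0.17 with the array's SD, against 0.46 and -0.68 for the one used. The dimmest Synpo2 probe set had 0.65 with Myh11 and -0.48 with the array's SD, and so was still related to the spread of the array. The second gave -0.48 in the LAKTP lines and the dimmest -0.51, where the used probe set gave -0.16. A second Kcnmb1 probe set gave 0.60 and 0.22, against 0.33 and -0.77. Its mean level was 3.96, below the filter level of 4.16, against 4.82 for the one used. The 2 other Synpo2 probe sets were dim as well, at 4.41 and 4.24, so these values carry little weight. The second Myh11 probe set, far dimmer, had r = -0.94 with the array's SD and differed by -0.29 over 5 lines, against -0.65 for the one used. The likeness of the 7 depended on the probe sets used. Other Tpm2 probe sets had r = 0.78, 0.51 and 0.29 with Myh11, and those of Mylk had 0.83 and 0.75. The second Des probe set had 0.43 with Myh11 and -0.68 with the array's SD.

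**Figure D3:**
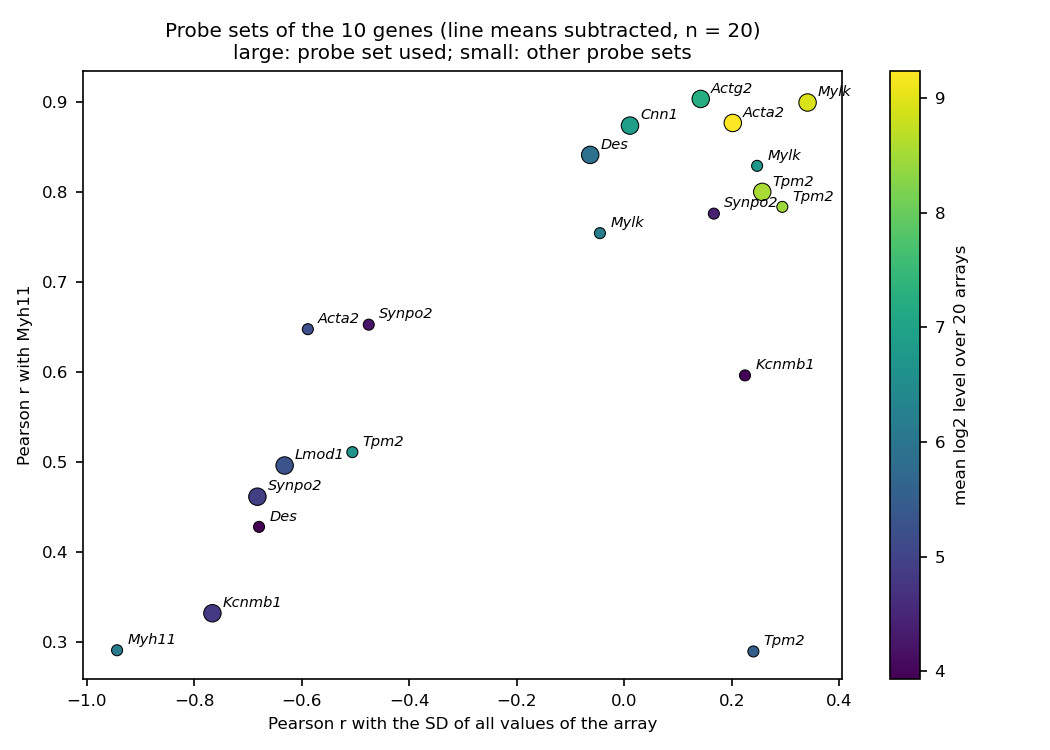
Each point is a probe set of the 10 genes other than the Myh11 probe set used, placed by its Pearson r with the SD of all values of the array (horizontal axis) and with Myh11 (vertical axis) after line means were subtracted (n = 20 tumours), with colour for mean level and large points for the probe sets used. Bright probe sets lie at the upper right, and the large points of Lmod1, Synpo2 and Kcnmb1 lie between -0.77 and -0.63 on the horizontal axis. The small points of Synpo2 are at 0.17 and -0.48 there, and that of Kcnmb1 is at 0.22.

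The probe sets were checked against other actins, since actin sequences are alike. Cytoplasmic Actb and Actg1 had r = -0.02 and 0.07 with Myh11 after line means were subtracted. Their differences over 5 lines were 0.07 and 0.01. Skeletal Acta1 and cardiac Actc1 had mean levels of 4.43 and 4.10, below the median of the table. The suffix of the Acta2 probe set marks probes that match several transcripts, and how far it reads Actg2 RNA was not tested. The second Acta2 probe set, without that suffix and far dimmer, differed by -0.11 over 5 lines, against -0.42 for the one used. In the LAKTP lines it differed by -0.27, against -0.80. Its r was 0.65 with Myh11 and -0.59 with the array's SD.

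Acta2 was compared with the genes of the gut wall in 3 ways. Its r with a list of 19 myofibroblast genes, taken as the mean centred level, was 0.63 after line means were subtracted. For the markers of mature muscle that r was 0.36 for Myh11, 0.52 for Actg2, 0.49 for Cnn1 and 0.47 for Des. The highest was Tpm2 at 0.76. Without control replicate 1 of MTO54 the values were 0.74 for Acta2 and 0.61 for Myh11 (n = 19), so the gap between these genes rested in part on that tumour. Tpm2 was then at 0.80, Cnn1 at 0.68, and Actg2 and Des each at 0.65. Acta2 was closer still to muscle genes, with r = 0.94 to Actg2, 0.94 to Tpm2, 0.91 to Mylk and 0.88 to Myh11 (Spearman's rho 0.91, 0.93, 0.91 and 0.90). Outside the 10 genes those most like Acta2 were Myl9 (0.95), Cald1 (0.86), Csrp1 (0.85), Thbs4 (0.81) and Kank2 (0.78). Those most like Myh11 were Myl9 (0.91), Pdlim3 (0.81), Slc24a3 (0.77), Dym (0.75) and Klhl23 (0.72), among all genes tested. Myl9 is the regulatory light chain of smooth muscle myosin, and Cald1 encodes caldesmon.

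The second way was the log2 difference of Acta2 and Myh11 within a tumour, which is read for its variation between tumours and not for its size, since probe sets differ in brightness. It averaged 0.10 ± 0.57 in control and 0.33 ± 0.53 in treated tumours (SD, n = 10 each). The difference of 0.23 between the arms did not pass (exact permutation within lines, two-sided p = 0.389, where the smallest p possible is 0.000257). It was positive in 4 of 5 lines, at 0.71 in MTO68, 0.44 in MTO207, 0.26 in MTO93 and 0.25 in MTO140, and -0.51 in MTO54. Of all tumours control replicate 1 of MTO54 stood highest, at 1.67, with Acta2 at 9.58 and Myh11 at 7.90, and galunisertib replicate 2 of MTO207 followed at 1.26. Without that MTO54 tumour the difference was 0.41 (exact permutation p = 0.0478). It was 0.0557 without that MTO207 tumour (exact permutation p = 0.814) and 0.0503 without MTO54 control replicate 2 (exact permutation p = 0.867). MTO54 control replicate 1 had the highest means of the myofibroblast and pericyte lists (0.97 and 0.82).

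**Figure D4:**
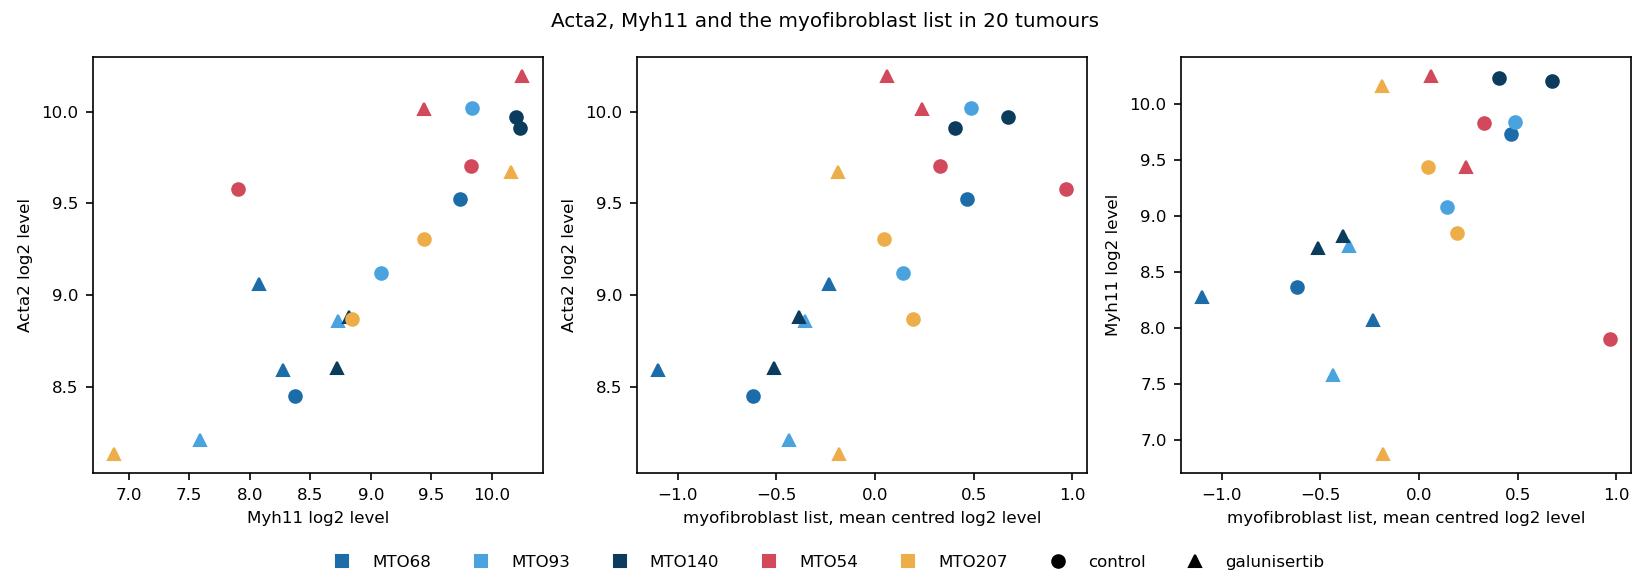
Log2 levels of Acta2 against Myh11, of Acta2 against the mean centred level of 19 myofibroblast genes and of Myh11 against the same list, with 1 point per tumour, colour for line, circles for control and triangles for galunisertib. Control replicate 1 of MTO54 (Acta2 9.58, Myh11 7.90, list 0.97) lies away from the other points in the left and right panels.

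The third way was the direction by line of the lists of other cell types. The myofibroblast list had lower means in treated tumours in every line, at -0.99 in MTO140, -0.71 in MTO93, -0.59 in MTO68, -0.50 in MTO54 and -0.31 in MTO207. In MTO54 Acta2 (0.47) and Myh11 (0.98) thus stood on the other side of 0 from the list. Without control replicate 1 of MTO54 the values there were 0.40 for Acta2, 0.0147 for Myh11 and -0.18 for the list, so the contrast of Myh11 with the list rested on that tumour. Over 5 lines 19 of 19 myofibroblast genes were below 0, against 49.7% of all genes, with a median of -0.60. Of these 17 were lower at an unadjusted p under 0.05, against 3.66% of all genes. Examples are Lox (-1.18), an enzyme that crosslinks collagen, Adam12 (-0.81), a metalloprotease, and Col8a1 (-0.73), a collagen. None passed after adjustment. The ranges of the list mean were -0.62 to 0.97 in control and -1.10 to 0.24 in treated tumours. Its part in the Acta2 values was not tested. Of its defining markers Fap was above the median of the table in 4 of 20 tumours and Postn in 20.

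**Figure D5:**
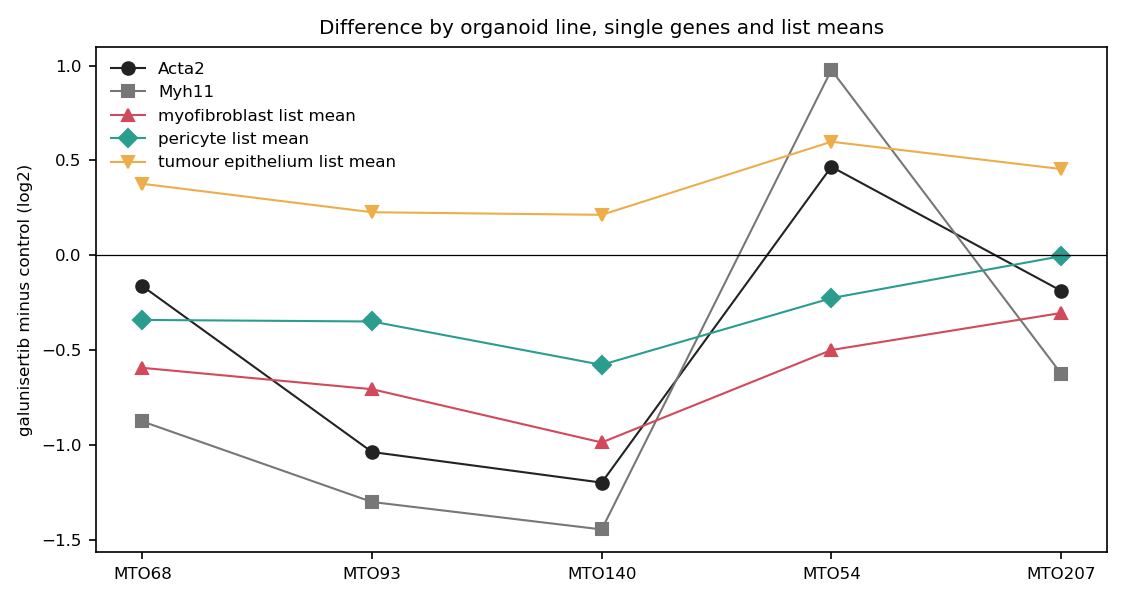
Galunisertib minus control on the log2 scale (vertical axis) in each line (horizontal axis) for Acta2, Myh11 and the means of the myofibroblast, pericyte and tumour epithelium lists, with lines joining the points as a guide. In MTO54 Acta2 and Myh11 are at 0.47 and 0.98 while the myofibroblast list is at -0.50. With control replicate 1 of that line left out they are at 0.40, 0.0147 and -0.18.

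Further genes of the muscle programme were in 2 lists. Of 31 other smooth muscle genes 28 were below 0 over 5 lines, against 49.7% of all genes, with a median of -0.17. At an unadjusted p under 0.05, 11 of 31 were lower, against 3.66% of all genes. They include Kcnma1 (-0.54), the channel that Kcnmb1 binds, Itga5 (-0.44), a fibronectin receptor subunit, and Jph2 (-0.35), which anchors membranes in muscle. None passed over 5 lines. Of all genes 2.01% passed within MTO68. Within MTO68 Aoc3, an amine oxidase, passed at -0.78 (limma adjusted p = 0.0482), but its adjusted p was 0.289, 0.31 and 0.103 in limma without control replicate 2, galunisertib replicate 1 or galunisertib replicate 2. Of 15 regulators 5 were below 0, with a median of 0.06. Foxf1 (-0.28), Gata6 (0.22) and Hopx (0.53) had the smallest p there, and Srf, the serum response factor, was above the median of the table in 20 of 20 tumours. Myocd, its muscle partner, was above it in 0 of 20.

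Markers of neighbouring cells were read in the same tumours, where 49.7% of all genes were below 0 over 5 lines. The pericyte and vascular muscle list had 9 of 9 genes below 0, with a median of -0.29 and Kcnj8 (-0.54), Rgs4 (-0.43) and Pdgfrb (-0.41) at the smallest p. Kcnj8, a potassium channel subunit of pericytes, was the 1 gene of all tested that passed within MTO140 (-1.26, limma adjusted p = 0.0238), and it did not pass without galunisertib replicate 2 of that line (limma adjusted p = 0.228). The mean of the pericyte list ranged from -0.29 to 0.82 in control and from -0.54 to 0.37 in treated tumours. The r of that mean with Acta2, Tpm2 and Myh11 was 0.59, 0.71 and 0.37. These values include MTO54 control replicate 1, which had the highest pericyte mean (0.82) with Myh11 at 7.90. How far the gap between Acta2 and Myh11 rested on that tumour is not given here, so it does not set the genes apart. Of 9 subepithelial myofibroblast and telocyte genes 9 were below 0 (median -0.07), with Grem1 at -1.02, Wnt5a at -0.55 and Frzb at -0.30. In that list 4 of the 10 genes measured were above the median of the table in no tumour. Of 5 genes of interstitial cells of Cajal, the pacemakers of gut muscle, 4 were below 0 (median -0.06). Thbs4 was at -1.22 there, Ano1 at -0.37 and Kit at 0.28, and 2 of the 5 were above the median of the table in no tumour. Of all genes 2.01% passed within MTO68. Kit passed within MTO68 (1.73, limma adjusted p = 0.0155), but not without control replicate 2, the array of narrow spread (1.0, limma adjusted p = 0.0508), or without galunisertib replicate 1 (limma adjusted p = 0.166). Endothelial genes had 7 of 8 below 0, with a median of -0.24 and Emcn (-0.34), Kdr (-0.30) and Plvap (-0.22) at the smallest p.

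Other parts of the gut wall gave small values. The medians were -0.07 for 11 enteric neuron genes, -0.03 for 6 enteric glia genes and -0.09 for 4 mesothelium genes. Of the genes measured, 3 of 6 for glia, 4 of 7 for mesothelium and 1 of 11 for neurons never rose above the median of the table. For such dim genes a small value says little about the cells. The smallest p were those of Uchl1 (-0.12), Chrna3 (-0.15) and Stmn2 (-0.14) among neuron genes, Erbb3 (0.40), Gfap (-0.24) and Gfra2 (-0.20) among glia genes, and Msln (-0.21), Upk1b (-0.10) and Lrrn4 (-0.07) among mesothelium genes. Of 12 skeletal muscle genes 7 were above the median of the table in no tumour, and the median difference of the 11 tested was -0.03, with Tnnt3 (-0.15), Myh2 (-0.10) and Myh1 (-0.09) at the smallest p. Tumour epithelium genes were higher in treated tumours for 11 of 11, with a median of 0.26. Colonocyte genes were so for 8 of 8, with a median of 0.54, while 49.7% of all genes were lower. Krt8 (0.24), Cldn7 (0.31) and Cldn3 (0.47) had the smallest p of the first list, and Ceacam1 (0.49), Slc26a3 (1.2) and Cdhr5 (0.57) of the second, none passing. The epithelium mean ranged from -1.08 to 0.97 in control and from -0.51 to 0.97 in treated tumours. Within lines it was higher by 0.60 in MTO54, 0.45 in MTO207, 0.38 in MTO68, 0.23 in MTO93 and 0.21 in MTO140. Its r with Myh11 and Acta2 was 0.27 and 0.19 after line means were subtracted. These values include MTO54 control replicate 1, which had the lowest epithelium mean (-1.08) with Myh11 at 7.90. How far they rest on that tumour is not given here. The part of the epithelium mean in the contractile gene values was not tested.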

How the data were processed

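Per the labels' protocols, RNA of whole tumour fragments was hybridised with 1 biotin-labelled sample per array. The deposited log2 values are per probe set. Per the submitters' processing notes the authors used RMA and affy, with no versions given in the sources used here. The platform annotation named 1 gene for 28898 of 45141 probe sets and several for 551, and 104 were controls. Entrez IDs linked 28689 to current symbols. For array data the number of arrays limits precision. RMA draws dim probe sets toward a floor, which can shrink their differences.

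For the effect over 5 lines limma 3.58.1 (R 4.3.3; lmFit, then eBayes with trend) took line as a block. Other comparisons used 10 group means with a shared spread. All tests were two-sided, p was adjusted over 15556 genes (Benjamini-Hochberg, 0.05), and the script was tested on simulated data. All 10 genes are named. Of each of 13 lists (164 genes, 147 tested) the text names the 3 genes of smallest p over 5 lines and any that passed in a line. The members and lists were chosen with earlier results of these data known. Lists are given as counts and medians, with no test. Some list genes are not analysed here. No arrays were identical. Plots used matplotlib 3.10.9.

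Alternatives were filters on dim genes, other probe sets, median centring, quantile normalization, eBayes without trend, array weights, a random block for line and omission of each tumour and line.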

Additional observations from a re-analysis of the deposited data

How the results depend on the processing

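Over 5 lines no member passed under any alternative run, and the median over members stayed between -0.65 and -0.23 (-0.54 to -0.37 with a tumour left out). All genes called were 0, but 57 with quantile normalization, 116 with array weights, 43 without MTO68 control replicate 2, 20 without MTO54 control replicate 2, 10 without line MTO68 and 2 without line MTO54 or with the mean of the within-line contrasts. In the LAKTP lines 0 to 1 members passed with a tumour left out, while all genes called went from 1 to 1336 without MTO68 control replicate 1 and to 79 without replicate 2. In MTO68 the members called were 0 to 1, and all genes called went from 312 to 8323 and 40 without these same tumours. The MTO140 median of -1.27 was -0.75 with the mean of probe sets. With a tumour left out the median ranged from -0.0023 to 0.58 in MTO54 and from -0.81 to 0.62 in MTO207. In LAKTP minus the other lines Synpo2 was -0.01, 0.0377 with quantile normalization and -0.21 to 0.19 with a tumour left out, and Kcnmb1, at -0.06, ranged from -0.16 to 0.0355. Between lines in control tumours 0 to 2 members passed with a tumour left out. Among the 10 pairs of lines the 3 member calls were 1 with quantile normalization and 0 to 11 with a tumour left out. Acta2 minus Myh11 ranged from 0.0503 to 0.41. The causes were not tested. No paired analysis was possible because the labels number no replicates across groups. The number of arrays, 2 tumours per group, limits what a line can show: the SE within a line was 0.94 for Actg2 and 0.84 for Myh11.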
